A study of Mus musculus with 6 samples.

Results

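The genes described here encode the proteins of the cytoplasmic ribosome, the particle that translates nuclear-encoded messenger RNA. They were chosen by symbol alone, as Rpl, Rps, Rplp or Rpsa names with a number and at most 1 further letter, and symbols of named pseudogenes were left out. The rule found 81 of the 24421 symbols in the count files, 49 of the large and 32 of the small subunit. Their RNA was measured in endothelial cells sorted by flow cytometry from subcutaneous B16F0 tumours, a transplantable mouse melanoma, in C57BL/6 mice. Tumours grew for 17 days, and the mice were dosed every 3 days with 50 mg/kg of 15C4, an antibody that blocks LRG1 (a secreted glycoprotein that acts on vessels), or of IgG as control. Each treatment has 3 libraries, named 15C4 1 to 3 and IgG 1 to 3, and the question is what blocking LRG1 changes in the RNA of sorted tumour endothelial cells. Whether libraries of 1 group came from different mice is not in the labels, so each p-value here reflects library-to-library spread that may be technical alone.

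Each ribosome holds 1 copy of most of these proteins, and cells make them in step with ribosomal RNA. The small subunit reads the messenger RNA, and the large subunit joins the amino acids and releases the chain through an exit tunnel. Messenger RNAs of ribosomal proteins classically begin with a C followed by a run of pyrimidines, the terminal oligopyrimidine motif, through which mTOR signalling and the binding protein LARP1 control their translation. Ribosomal protein messages are abundant in nearly every cell type, so their level does not mark endothelium.

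The start regions of the genes are shown first, because a pyrimidine run is a feature of sequence that the symbol rule did not use. RefSeq promoter sequences (GRCm38.p6) matched 60 of the 81 members, with 72 promoters. In the 30 bases from 15 before to 15 after the annotated start, on the strand of the gene, 27 of the 72 held a run of at least 8 pyrimidines. That is 37.5% of member promoters, against 12% of all 32851 promoters in the same window. Capitals mark the longest run in each of 7 windows, chosen for members whose values are described below. These 7 lean towards long runs and do not represent the 72.
Rps27l: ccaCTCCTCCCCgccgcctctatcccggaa
Rpl39: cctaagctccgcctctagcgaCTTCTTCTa
Rpl15: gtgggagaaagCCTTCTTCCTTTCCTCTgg
Rps6: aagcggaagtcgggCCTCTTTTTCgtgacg
Rpl4: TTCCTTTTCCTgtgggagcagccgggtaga
Rps27: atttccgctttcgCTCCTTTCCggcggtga
Rps15: CCCggcagagctcgcgataactgcgcaagc
These windows are chr9:66946071-66946100 (plus strand) for Rps27l, chrX:37085208-37085237 (minus) for Rpl39, chr14:18270972-18271001 (minus) for Rpl15 and chr4:86857353-86857382 (minus) for Rps6. They are chr9:64173372-64173401 (plus) for Rpl4, chr3:90213634-90213663 (minus) for Rps27 and chr10:80292416-80292445 (plus) for Rps15. The window of Rpl15 holds a run of 17 pyrimidines, and that of Rps15 none longer than 3. The Rps15 window ends before the start of the gene in the GENCODE M21 annotation (80292453). It therefore does not show how the Rps15 message begins. At another annotated start of Rps27l the longest run is 4.

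Short pyrimidine words were also more frequent in these windows than in the windows of all promoters. CTTTCC was in 13.9% of member windows and 1.42% of all windows, CTTTTC in 6.94% and 1.06%, and CTCTTT in 11.1% and 1.13%, all on the strand of the gene, and these words can overlap each other. CCGGAAG, the core bound by ETS-family factors such as GABP, was in 36.1% of member promoters and 8.86% of all promoters, searched on both strands of 300 bases. AAGATGGC, part of the YY1 motif, was in 9.72% against 2.75% on both strands. TATAAA was in 6.94% against 8.32% on the strand of the gene. A match describes letters in a window and is not a measured binding site.

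The libraries held between 5175600 and 19572202 counts. One library, 15C4 3, lay far from the others on the leading principal component (45.7% of the variance of tested genes) and had 1537 tested genes at 0 counts, against 31 to 507 in the other libraries. In CPM, counts per 1000000 counts of a library, 10 melanocyte genes summed to between 24273 and 29350 in every library, and 12 pan-endothelial genes to between 153 in IgG 3 and 2566 in 15C4 2. Cdh5, which encodes VE-cadherin, was at 46.3 CPM in IgG 3, whereas the other libraries held 505 to 1240 CPM, so the labelled cell type was faintest in IgG 3. Tumour cell and endothelial transcripts are measured together, and which cells the ribosomal protein messages came from cannot be told apart. In bulk samples, fewer cells of a type and less RNA per cell cannot be told apart either.

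Ribosomal protein genes made up a similar, small share of each library. The 81 genes took 2.55%, 2.41% and 2.23% of counts in 15C4 1, 2 and 3, and 2.67%, 2.21% and 3.08% in IgG 1, 2 and 3. IgG 3 was highest and IgG 2 lowest, so both ends of the range lay within the control group and the groups overlapped. The 15C4 mean was 2.40% ± 0.157 and the IgG mean 2.66% ± 0.437 (SD over 3 libraries each), a difference of -0.26 percentage points. With 1 library left out the difference ran from -0.48 percentage points (without IgG 2) to -0.045 (without IgG 3), and without 15C4 3 and IgG 3 together it was 0.036.

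IgG 3, the library with the highest ribosomal protein share, also had the lowest pan-endothelial sum. IgG 2, with the lowest share, had 1094 CPM of lymphatic endothelial markers (Mmrn1, Lyve1, Prox1, Flt4, Pdpn and Ccl21a), against 11.6 to 63.8 CPM in the other 5 libraries. Of these 6 markers, 1 was at 0 in every library, and the sum is not split by gene here. Markers of T and NK cells reached 465 CPM in IgG 1 and 219 CPM in 15C4 1 and were at most 21.3 CPM elsewhere. Leukocyte and macrophage markers ran from 0.469 CPM in 15C4 3 to 174 CPM in IgG 1, with 3.09 CPM in 15C4 1. Fibroblast markers ran from 0 to 152 CPM, and the 3 erythroid markers were at 0 in every library. Of the 9 marker lists, only that of pericytes and smooth muscle (5 genes) had groups that did not overlap. Its sums were low, at 13.0, 30.2 and 32.4 CPM in 15C4 and at 7.92, 2.18 and 2.57 CPM in IgG. Among all tested genes taken singly, 2.88% did not overlap with 15C4 higher and 6.64% with 15C4 lower. Whether the treatment changed these markers was not tested. Nuclear retained RNAs (Malat1, Neat1, Meg3 and Xist) were lowest in 15C4 3, with 12174 CPM in all, and ranged elsewhere from 20447 to 37916 CPM. Whether their sum reflects RNA quality or the cells present was not tested. The part of these differences in the ribosomal protein share was not tested.

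**Figure D1:**
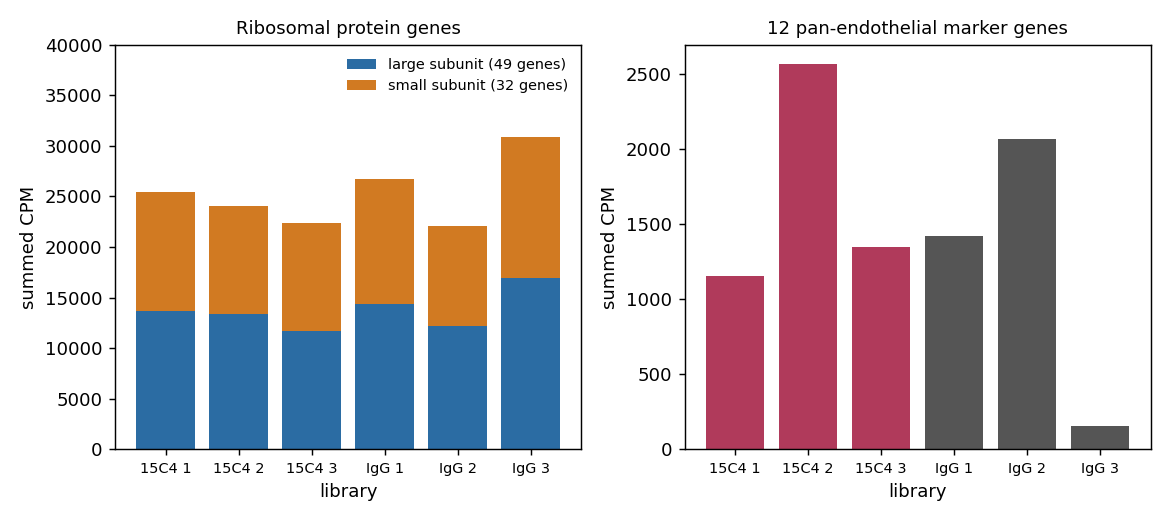
The left panel plots the summed CPM of the ribosomal protein genes per library, stacked by subunit (49 large, 32 small), and the right panel plots the summed CPM of 12 pan-endothelial genes. Ribosomal protein sums lie between 22103 and 30843 CPM, while the endothelial sums run from 153 to 2566 CPM, and IgG 3 has the highest of the former and the lowest of the latter.

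Both subunits were highest in IgG 3, and each had a different lowest library. Large subunit genes summed to 13664, 13404 and 11722 CPM in 15C4 1, 2 and 3 and to 14399, 12150.0 and 16924 CPM in IgG 1, 2 and 3. Small subunit genes summed to 11800.5, 10688 and 10616 CPM in 15C4 and to 12336, 9953 and 13919 CPM in IgG. The large subunit was lowest in 15C4 3 and the small subunit in IgG 2. The ratio of small to large subunit counts averaged 0.856 ± 0.0546 over the 15C4 libraries and 0.833 ± 0.0208 over the IgG libraries (SD, n = 3). It was lowest in 15C4 2, at 0.797, and highest in 15C4 3, at 0.906, so that the 15C4 libraries enclosed the IgG ones.

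Most single genes shared their highest and lowest libraries. Of the 73 members with a mean of at least 20 CPM, 47 were highest in IgG 3 and 42 were lowest in 15C4 3. IgG 2 was lowest for 18 of them and highest for 0. These CPM are without TMM factors, of which that of 15C4 3 was the lowest (0.894). How many of all tested genes were highest or lowest in these libraries was not counted. Over the 6 libraries the median range of these 73 genes was 0.69 on the log2(CPM + 1) scale. The median range was 2.28 over all 11144 tested genes and 1.5 over the 4109 tested genes of at least 50 CPM on average. These sets were not matched for level, and the 73 genes averaged from 65.4 CPM (Rps28) to 1010 CPM (Rps27l). The order of the 73 levels was alike in every pair of libraries, with Spearman correlations from 0.746 to 0.944 over the 15 pairs, a description of genes that share their libraries.

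No gene of either ribosomal subunit differed between treatments by the test. Of the 81 members, 78 were abundant enough to be tested, and edgeR's quasi-likelihood test over all genes called 0 of them at an adjusted p of 0.05. It called 0% of all 11144 genes, and at an unadjusted p under 0.05 it marked 0 members against 2.58% of all genes. DESeq2 called 0 members against 0.233% of all genes. The smallest unadjusted p of a member was 0.197, for Rps15. In the authors' deposited table, 0 of the 80 members with an adjusted p passed 0.05, and the smallest adjusted p was 0.147, for Rpl3l. At an unadjusted p under 0.05 that table marked 1 member, also Rpl3l, which had counts only in IgG 1 and IgG 3. The share of all genes that passed in the authors' table was not read here.

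The fitted changes were small and spread around a value slightly below 0. Of the 78 tested members 24 were fitted above and 54 below 0, with a median log2 fold change (15C4 over IgG) of -0.06, whereas 50.7% of all tested genes were above 0 with a median of 0.01. Of the 4109 tested genes of at least 50 CPM on average, 58.5% were above 0, with a median of 0.09. The median was -0.08 for the 46 large subunit and -0.06 for the 32 small subunit members tested. This balance rested on single libraries. Without IgG 3, 51 of 78 members were above 0, and the medians of the large and small subunit turned to 0.08 and 0.09. Without IgG 2, 7 were above 0, with medians of -0.21 and -0.15. With library totals alone and no scaling factors, 8 were above 0 and the medians were -0.17 and -0.14.

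The replicates set how large a change could have gone unseen. The 95% interval of the log2 fold change included 0 for all 78 tested members. For 57 of the 73 members of at least 20 CPM it lay within a 2-fold change in either direction. Across the 73 the standard errors ran from 0.27 to 0.52, and the widest bounds were -1.31 for Rpl35 and 1.59 for Rpl15. A p above the threshold does not show that a gene was equal in both groups.

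**Figure D2:**
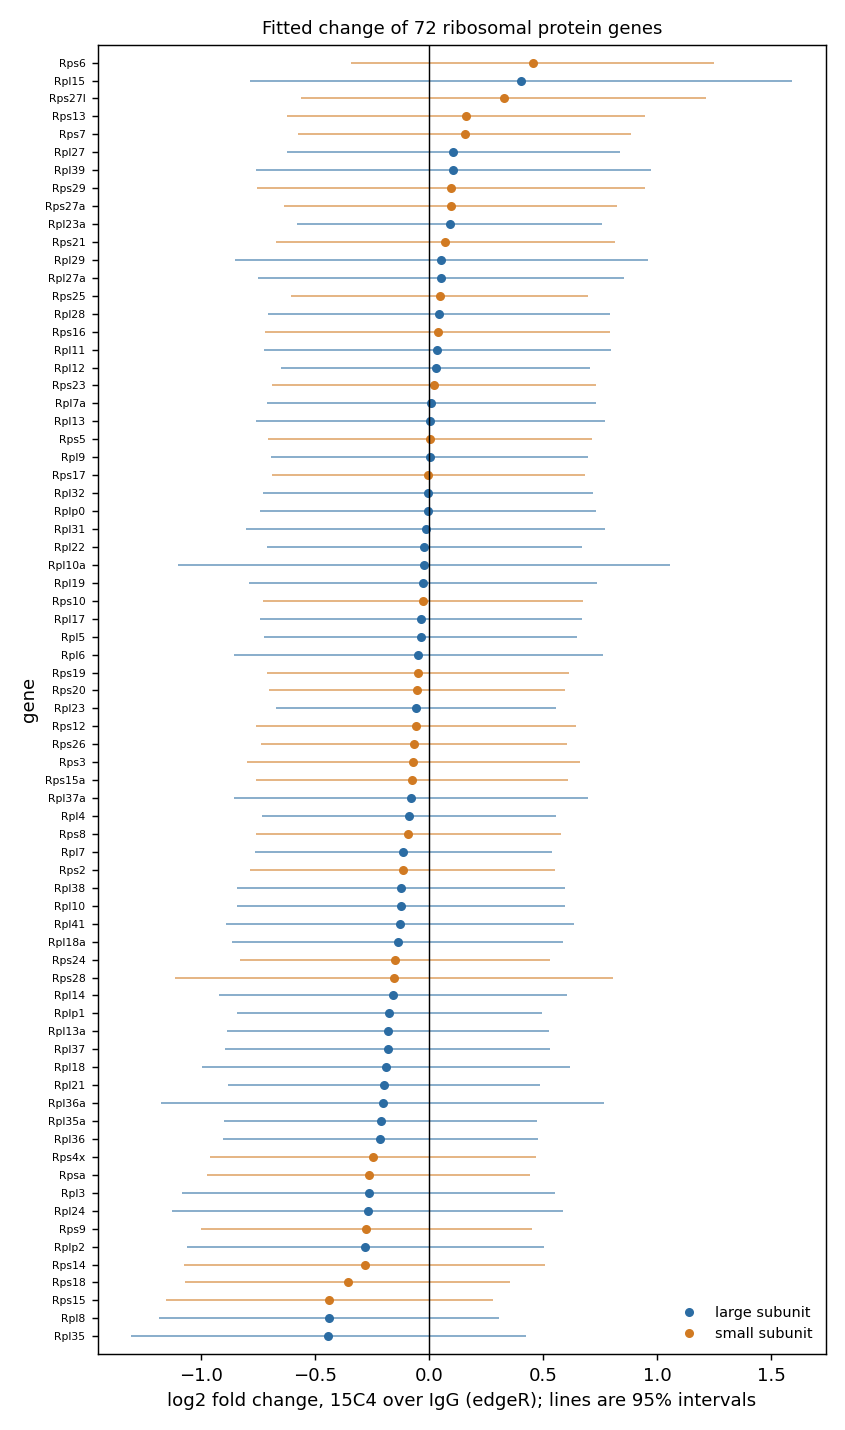
The plot gives the edgeR log2 fold change of 15C4 over IgG on the x axis for 72 of the ribosomal protein genes of at least 20 CPM, with its 95% interval as a line and the subunit as colour. Every interval crosses 0, and the points run from -0.44 (Rpl35) to 0.45 (Rps6).

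Members whose groups did not overlap were few. In CPM, 4 of the 78 tested members were lower in each 15C4 library than in each IgG library (Rpl8, Rpl21, Rpl24 and Rpl36), and 0 were higher. Over all tested genes these shares were 6.64% and 2.88%. After TMM scaling 1 of the 4 remained, Rpl36, and the share over all tested genes on that scale was not counted. Rpl36, a large subunit protein, was at 208, 208 and 189 CPM in 15C4 and at 226, 231 and 289.7 CPM in IgG. The gap between the groups was smaller than the spread within IgG.

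Among large subunit genes the most abundant was Rpl4 (GRCm38 chromosome 9, 64173375 to 64178666), a protein that lines the exit tunnel. It was at 1166, 936 and 732 CPM in 15C4 1, 2 and 3 and at 1111, 889.6 and 1169 CPM in IgG 1, 2 and 3. 15C4 3 was lowest, and the other 15C4 libraries lay within the IgG range. Rpl32 (chromosome 6, 115805505 to 115808747) was at 949.7, 1015 and 911.5 CPM in 15C4 and at 1019, 723 and 1328 CPM in IgG. The 15C4 values sat inside the IgG range.

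Rpl23 (chromosome 11, 97777527 to 97782437) varied least of the large subunit genes of at least 20 CPM. It was at 611, 633 and 602 CPM in 15C4 and at 753, 689.7 and 608 CPM in IgG, a 1.25-fold range. IgG 1 was highest, and IgG 3 lay within the 15C4 range. Rpl27a and Rpl5 had the next smallest ranges, 1.30-fold each.

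Rpl15 (chromosome 14, 18267823 to 18271391), a core protein of the large subunit with a long pyrimidine run in its window, varied most. It was at 136, 357 and 329 CPM in 15C4 and at 135, 188 and 354 CPM in IgG. Low and high levels occurred in each group, with a 2.65-fold range over the libraries (log2 fold change 0.40, SE 0.52, unadjusted p = 0.460 by edgeR's test). Without IgG 1 the log2 fold change was 0.14 and without IgG 3 it was 0.92. The lowest Rpl15 was in 15C4 1 and IgG 1, which also had the most T and NK cell transcripts, and the part of those cells was not tested.

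Rpl8 (chromosome 15, 76904078 to 76906314), which lies at the centre where peptide bonds form, had one of the largest fitted decreases among large subunit genes. It was at 380.2, 375 and 196 CPM in 15C4 and at 467, 405 and 483 CPM in IgG. The groups did not overlap, 15C4 3 being far below the rest (log2 fold change -0.44, SE 0.33, unadjusted p = 0.211). Without 15C4 3 it was -0.22. Rpl35, of the exit tunnel ring, was at 107, 109 and 80.2 CPM in 15C4 and at 149.7, 101 and 176 CPM in IgG (-0.44, SE 0.38, unadjusted p = 0.274). IgG 2 lay within the 15C4 range, and without IgG 3 the log2 fold change of Rpl35 was -0.23. Rpl3, a peptidyl transferase centre protein, was at 395, 314 and 255 CPM in 15C4 and at 286, 342 and 589.9 CPM in IgG, where IgG 3 alone lay above every 15C4 library. Its log2 fold change was -0.27 (SE 0.36), and 0.14 without IgG 3.

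The large subunit genes with the smallest p on the higher side after Rpl15 were Rpl27, Rpl23a and Rpl39, with log2 fold changes of 0.11 (SE 0.32), 0.09 (SE 0.29) and 0.10 (SE 0.38). Rpl23a, which binds chaperones and the signal recognition particle at the tunnel exit, was at 340.3, 269.8 and 260.3 CPM in 15C4 and at 329, 245 and 292 CPM in IgG. Its groups overlapped almost fully.

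The stalk of the large subunit, which recruits translation factors, is built from Rplp0, Rplp1 and Rplp2. The 3 genes summed to 1456, 1296 and 1153 CPM in 15C4 and to 1581, 1171 and 1804 CPM in IgG. All 3 were fitted below 0 and none passed, and their largest log2 fold change in size was -0.28 (SE 0.34), for Rplp2. Rplp2 was at 288, 246 and 256 CPM in 15C4 and at 383, 218 and 415 CPM in IgG, so IgG 2 lay below each 15C4 library. Its log2 fold change was -0.53 without IgG 2 and -0.08 without IgG 3.

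Rpl5 and Rpl11, which with 5S ribosomal RNA form the particle that inhibits MDM2 and so stabilises p53, overlapped between the groups. Rpl5 (chromosome 5, 107900502 to 107909005) was at 209, 239.8 and 197 CPM in 15C4 and at 232, 218 and 256 CPM in IgG. Rpl11 was at 192, 162 and 110.4 CPM in 15C4 and at 158, 146 and 173 CPM in IgG. Their log2 fold changes were -0.04 (SE 0.30) and 0.03 (SE 0.33). Of the 8 genes of the exit tunnel ring, 2 were fitted above and 6 below 0, with a median of -0.03, and 0 passed.

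Of the small subunit genes, Rps27l (chromosome 9, 66946086 to 66949516) was the most abundant. It encodes a close relative of Rps27 and is known as a target of p53. It was at 903, 853 and 1501 CPM in 15C4 1, 2 and 3 and at 1165, 625 and 1015 CPM in IgG 1, 2 and 3. 15C4 3 was highest and IgG 2 lowest, and among the other 4 both IgG libraries lay above both 15C4 libraries. The log2 fold change was 0.33 (SE 0.39, unadjusted p = 0.425), and without 15C4 3 it was -0.06.

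Rps6 (chromosome 4, 86854660 to 86857412), the small subunit protein phosphorylated by S6 kinases downstream of mTOR, had the largest fitted increase. It was at 403, 241 and 309.7 CPM in 15C4 and at 199, 205 and 331 CPM in IgG. IgG 1 and IgG 2 were below every 15C4 library, but IgG 3 lay above 15C4 2 and 15C4 3, so the groups overlapped (log2 fold change 0.45, SE 0.35, unadjusted p = 0.228). Without IgG 3 it was 0.77. Among small subunit genes Rps27l came next, then Rps13 with 0.16 (SE 0.34) and Rps7 with 0.15 (SE 0.32).

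Rps15 (chromosome 10, 80292453 to 80294114), a protein of the small subunit head, had the smallest p of all members. It was at 468, 296 and 246 CPM in 15C4 and at 466, 418 and 546 CPM in IgG. 15C4 1 lay within the IgG range, and the other 15C4 libraries lay below it (log2 fold change -0.44, SE 0.31, unadjusted p = 0.197). Without 15C4 1 it was -0.67. Rps18 was at 303, 237 and 163 CPM in 15C4 and at 283, 319 and 344 CPM in IgG (-0.36, SE 0.31). Rpsa, the laminin receptor precursor that is also a small subunit protein, was at 411, 305 and 206 CPM in 15C4 and at 356, 390.3 and 414 CPM in IgG (-0.27, SE 0.31). In both genes 15C4 3 was lowest and 15C4 1 was inside the IgG range. The log2 fold change of Rps18 was -0.20 and that of Rpsa -0.09 without 15C4 3, and that of Rpsa was -0.46 without 15C4 1. Rps9, which guards decoding accuracy, was at 341, 311 and 258 CPM in 15C4 and at 342, 309.3 and 512 CPM in IgG (-0.28, SE 0.32). IgG 3 was highest, and the other IgG libraries lay close to 15C4 1 and 15C4 2. Without IgG 3 the log2 fold change of Rps9 was 0.0085.

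Rps14, Rps15a and Rps3 were also among the abundant small subunit genes. Rps14, a protein of the small subunit platform, was at 823, 675 and 371 CPM in 15C4 and at 819, 601 and 954 CPM in IgG, the largest range of a small subunit gene of at least 20 CPM, 2.57-fold. Its low value was in 15C4 3. Rps15a was at 576, 506 and 591 CPM in 15C4 and at 765, 491 and 625 CPM in IgG, and Rps3 at 618, 463 and 390.1 CPM in 15C4 and at 458, 445 and 719 CPM in IgG. In both genes 15C4 and IgG libraries overlapped. Rps25, which is used by viral internal ribosome entry sites, varied least of the small subunit genes, at 461, 425 and 472 CPM in 15C4 and at 525, 396 and 482 CPM in IgG.

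**Figure D3:**
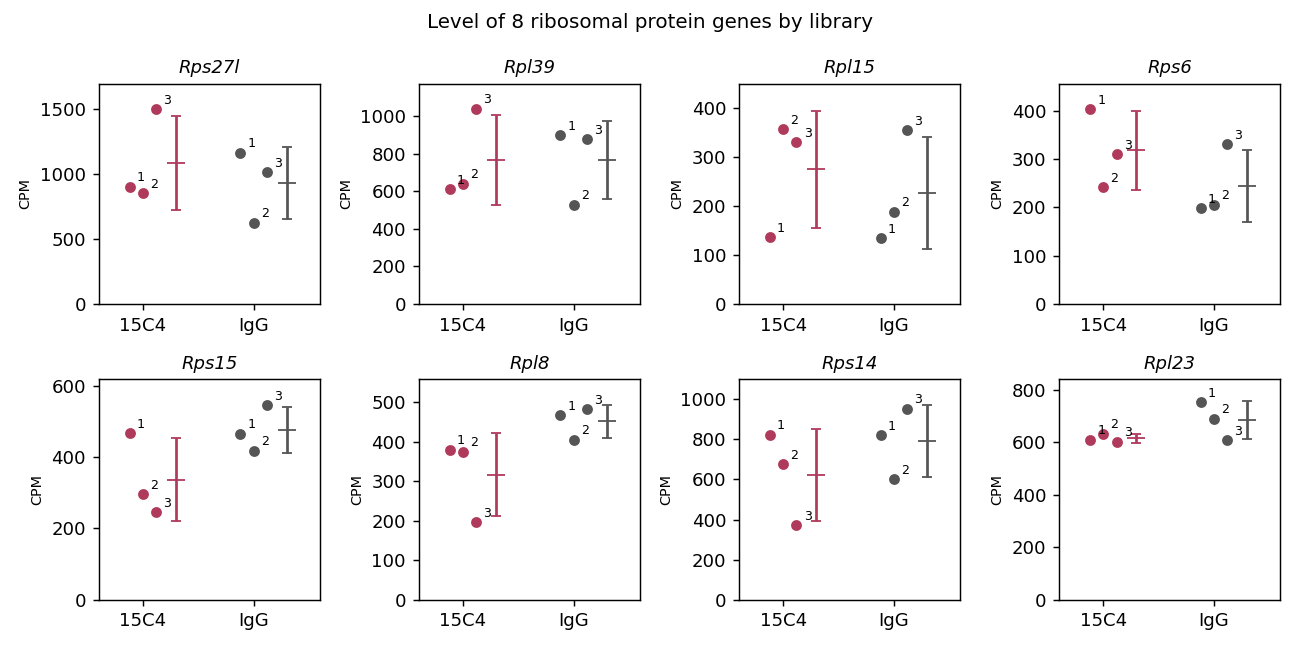
Each panel plots the CPM of 1 gene in the 3 libraries of 15C4 and of IgG (points labelled by library number), with the mean and SD of each group as a bar beside them. Rps27l and Rpl39 are highest in 15C4 3, Rps14 and Rpl8 are lowest there, Rpl15 is low in 15C4 1 and IgG 1, and Rpl23 lies between 602 and 753 CPM.

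Genes in which loss of 1 copy causes Diamond-Blackfan anaemia, a failure of red cell formation, were read as a group of 18. Of these, 5 were fitted above and 13 below 0, with a median log2 fold change of -0.04, and 0 passed. Rps19, the founding gene of this group, was at 434, 367 and 312 CPM in 15C4 and at 371, 356 and 488 CPM in IgG. Its groups overlapped, with a log2 fold change of -0.05 (SE 0.29). The 4 members on chromosome X (Rpl10, Rpl36a, Rpl39 and Rps4x) had a median of -0.17, with 1 above and 3 below 0.

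Members were also read by the length of their pyrimidine run. The 26 tested members with a run of at least 8 near a start had a median log2 fold change of -0.08, with 8 above and 18 below 0. The 31 tested members whose promoters held a shorter run had a median of -0.05, with 10 above and 21 below 0. This split depends on the RefSeq starts. Some windows of the shorter-run members, such as those of Rps15 and Rpl27, end before the GENCODE start of the gene.

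The make-up of the set was then compared between libraries. For each library the log2(CPM + 1) of the 73 genes was centred on the library's median over them and set against the mean of the other 5 libraries. The SD of these deviations was 0.375 in 15C4 3 and between 0.206 and 0.277 in the other 5. In 15C4 3, 7 genes were above 0.5 and 8 below -0.5, against at most 2 above and 3 below elsewhere.

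The genes above their usual place in 15C4 3 were led by Rps27l (deviation 0.99), Rpl15 (0.87), Rpl39 (0.82) and Rps13 (0.60). Rpl15 was not particular to 15C4 3, with deviations of 0.83 in 15C4 2 and 0.48 in IgG 3. Its CPM was higher in those libraries, at 357 and 354, than in 15C4 3, at 329. Rpl39 (chromosome X, 37082520 to 37085402), a small protein that lines the exit tunnel, was at 612, 639 and 1041 CPM in 15C4 and at 899, 528 and 876 CPM in IgG. Those below were led by Rpl8 (-0.86), Rps14 (-0.80), Rpsa (-0.62) and Rps18 (-0.61). In IgG 1 and 15C4 1 the gene farthest below its place was Rpl15, at -1.06 and -0.94. In IgG 2 it was Rps27l, at -0.61, and in IgG 3 Rpl3 was farthest above, at 0.63.

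**Figure D4:**
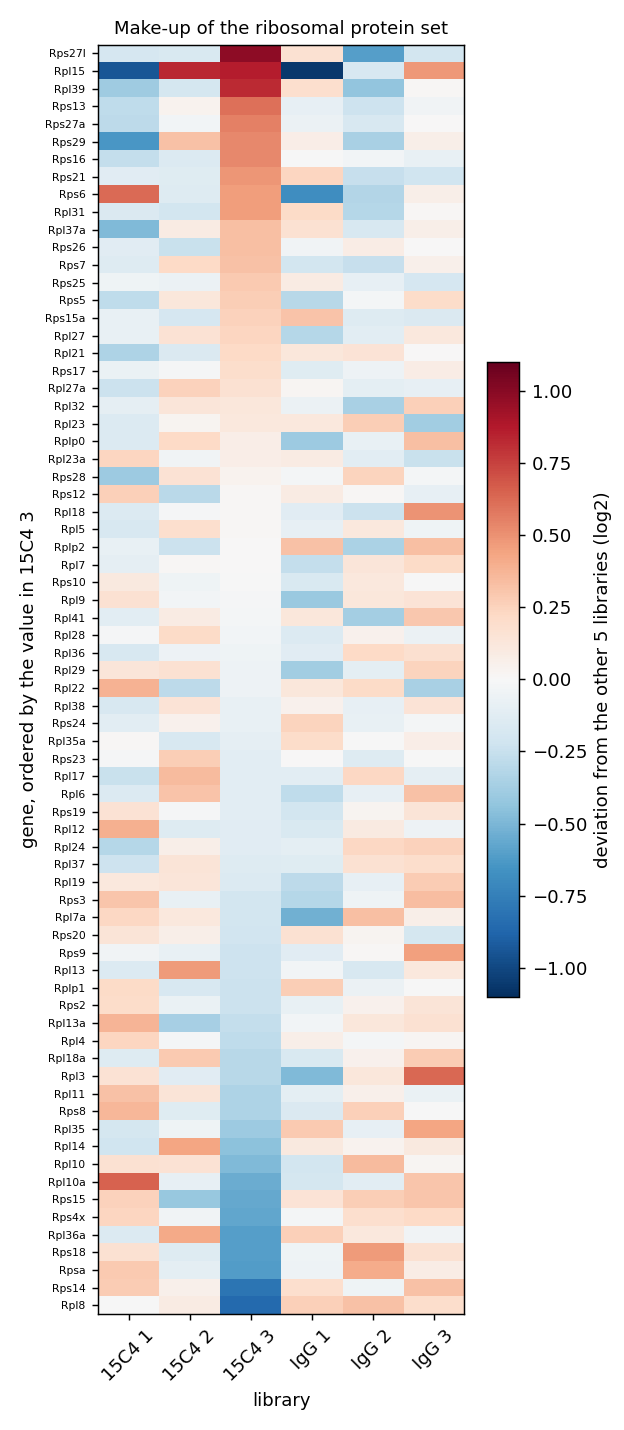
The heat map shows, for 72 genes (rows) and 6 libraries (columns), the deviation of each gene from its mean in the other 5 libraries after centring, on a log2 scale from blue (lower) to red (higher), with genes ordered by 15C4 3. Most of the strong colours are in 15C4 3, from Rps27l at 0.99 to Rpl8 at -0.86, and the darkest blue cells of 15C4 1 and IgG 1 are Rpl15, at -0.94 and -1.06.

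Deviations moved with coding length in a way that differed between libraries. Across the 73 genes the Spearman correlation of deviation with GENCODE coding length was -0.593 in IgG 1 and -0.376 in 15C4 3, and between 0.177 and 0.331 in the other 4. In IgG 1, 19 of the 25 shortest genes (up to 408 coding bases) lay above 0, against 3 of the 25 longest. In IgG 3, 14 of the 25 shortest and 23 of the 25 longest did. The Spearman correlation with GC content was 0.439 in IgG 3, -0.285 in 15C4 3 and between -0.162 and 0.122 in the others. These correlations are across genes that share a library and its depth, and are a description only. The part of fragment length or amplification in them was not tested.

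**Figure D5:**
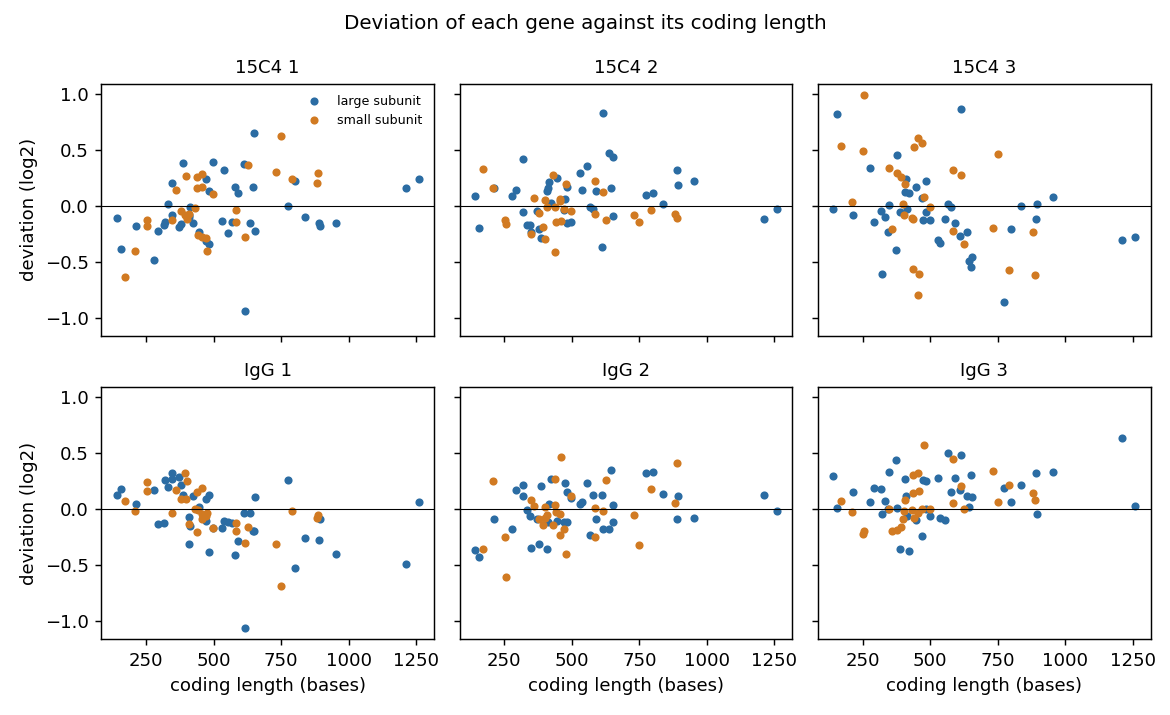
Each panel plots, for 1 library, the deviation of the 73 genes (log2, y axis) against their coding length in bases (x axis), coloured by subunit. Short genes lie above 0 more often than long ones in IgG 1 (19 of the 25 shortest, 3 of the 25 longest) and 15C4 3 (14 and 7), and less often in the other 4 libraries.

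Levels were compared between genes per kilobase of coding sequence, a scale that leaves out untranslated bases and therefore places genes with short coding regions higher. On this scale the 30 small subunit genes of at least 20 CPM had a median of 708 CPM per kilobase (range 311 to 3962) and the 43 large subunit genes a median of 497 (range 108 to 4909). Rpl39, with 156 coding bases, ranked first at 4909 CPM per kilobase, followed by Rps27l at 3962, Rpl41 at 2494 and Rpl32 at 2429. Rpl10a was last at 108 CPM per kilobase.

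A group of 4 members, Rps27, Rpl26, Rpl30 and Rpl34, had almost no counts. Rps27 was at 0.595, 6.03 and 0 CPM in 15C4 and at 1.93, 2.28 and 6.60 CPM in IgG. Rpl26 was between 3.33 and 9.54 CPM, Rpl30 between 3.33 and 11.7 CPM and Rpl34 between 3.75 and 9.60 CPM. Apart from Rps4l and the restricted relatives Rpl3l, Rpl10l and Rpl39l, the next lowest member was Rps28, which averaged 65.4 CPM. Ribosomal protein genes have many processed pseudogenes, and 78 of the 81 members shared at least 1 stretch of 50 coding bases with another GENCODE M21 gene. All such stretches of Rps27 were shared, 87.4% of those of Rpl26, 83.3% of Rpl30 and 71.5% of Rpl34, but the median over the 73 members of at least 20 CPM was 92.4%, and 25 of the 73 were shared in full. The part of shared sequence in these low counts was not tested. How reads with several matches were counted is not given in the sources used here, so levels of all members that share stretches are uncertain.

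The coding sequences of Rps27 and Rps27l (GENCODE M21) are shown because 1 is nearly uncounted and the other leads the small subunit. Capitals mark bases at which the sequences differ.
Rps27: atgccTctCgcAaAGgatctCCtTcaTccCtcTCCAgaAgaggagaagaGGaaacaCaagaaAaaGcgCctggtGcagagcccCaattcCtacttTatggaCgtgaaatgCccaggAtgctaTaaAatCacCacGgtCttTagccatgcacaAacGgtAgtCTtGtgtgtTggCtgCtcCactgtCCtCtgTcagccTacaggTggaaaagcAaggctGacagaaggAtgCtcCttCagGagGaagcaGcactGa
Rps27l: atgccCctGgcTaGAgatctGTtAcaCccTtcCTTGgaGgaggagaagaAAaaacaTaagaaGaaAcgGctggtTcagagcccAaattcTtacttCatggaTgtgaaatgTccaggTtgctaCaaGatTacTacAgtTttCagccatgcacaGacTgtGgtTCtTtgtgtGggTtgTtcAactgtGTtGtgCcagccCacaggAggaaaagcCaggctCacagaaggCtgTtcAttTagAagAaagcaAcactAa
The 255 coding bases of each differ at 61 positions, an identity of 76.1%. Differences are spread along the whole length.

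Relatives with restricted expression were at or near 0. Rpl3l, known from striated muscle, had 2 counts in IgG 1, 37 in IgG 3 and 0 in the other 4 libraries. Rpl10l, known from testis, had 7 counts in 15C4 3, 4 in IgG 2 and 0 elsewhere. Rpl39l had 60 counts in 15C4 2, 2 in IgG 1 and 0 elsewhere. These 3 genes were too low to be tested, and each had counts in 2 libraries. Their parent genes Rpl3, Rpl10 and Rpl39 averaged 364, 256 and 766 CPM.

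Rps4l, annotated in GENCODE M21 as a transcribed processed pseudogene, had 40, 226 and 0 counts in 15C4 and 38, 67 and 0 in IgG. It was thus listed at 0 in both libraries numbered 3, whereas its parent Rps4x was at 447, 355 and 236 CPM in 15C4 and at 406, 382 and 501 CPM in IgG. Rpl39l shared 0% of its stretches of 50 coding bases with another GENCODE M21 gene, including Rpl39. The coding sequences of Rpl39 and Rpl39l differ at 23 of 156 bases (capitals).
Rpl39: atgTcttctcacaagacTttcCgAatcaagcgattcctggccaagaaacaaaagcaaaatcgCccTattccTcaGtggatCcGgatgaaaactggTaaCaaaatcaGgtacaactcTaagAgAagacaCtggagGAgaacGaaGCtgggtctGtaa
Rpl39l: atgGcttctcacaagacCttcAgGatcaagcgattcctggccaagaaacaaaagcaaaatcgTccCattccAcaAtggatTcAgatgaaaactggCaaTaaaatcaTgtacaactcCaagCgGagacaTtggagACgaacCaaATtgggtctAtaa

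Ribosomal proteins that the symbol rule misses were measured too. Rps3a1, of the small subunit, was at 447, 532 and 315 CPM in 15C4 and at 468, 444 and 671 CPM in IgG. Fau, which encodes a ribosomal protein fused to a ubiquitin-like protein, was at 90.5, 122 and 95.9 CPM in 15C4 and at 140.1, 119 and 169.9 CPM in IgG. Both were fitted below 0, with log2 fold changes of -0.21 (SE 0.33) and -0.38 (SE 0.37), and neither passed. Rpl22l1, the paralogue of Rpl22, was at 423, 620 and 372 CPM in 15C4 and at 298, 296 and 375 CPM in IgG. IgG 3 lay just above 15C4 3 in CPM, and after TMM scaling the groups did not overlap. The log2 fold change was 0.64 (SE 0.32, unadjusted p = 0.0817), whereas Rpl22 itself was at 353, 223 and 231 CPM in 15C4 and at 320.3, 282 and 261 CPM in IgG (-0.02, SE 0.30).

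Genes around the ribosome did not pass either. Of 16 other genes with terminal oligopyrimidine messages, such as elongation factors, 10 were fitted above and 6 below 0 (median log2 fold change 0.06). Pabpc1, the poly(A)-binding protein, was picked after its values were seen, as the gene with the smallest p of these. It was at 605, 351 and 369.95 CPM in 15C4 and at 601, 679.97 and 685 CPM in IgG, with 15C4 1 just inside the IgG range (-0.50, SE 0.29, unadjusted p = 0.126). Of 25 ribosome biogenesis genes 14 were above and 11 below 0 (median 0.04). Gnl3, which encodes nucleostemin and was also picked by its p, was at 220.3, 147 and 165 CPM in 15C4 and at 245, 282 and 334 CPM in IgG (-0.61, SE 0.31, unadjusted p = 0.0837), without overlap.

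Of the 77 mitochondrial ribosomal protein genes, which serve the separate ribosome of mitochondria, 44 were above and 33 below 0 (median 0.09). Their sum was highest in 15C4 3, at 8378 CPM, and in IgG 3, at 7880 CPM, and lay between 4698 and 6471 CPM in the others, so 15C4 3 was low for cytoplasmic and high for mitochondrial ribosomal proteins. A list on the control of ribosomal protein synthesis had 9 tested genes (Mtor, Rptor, Rps6kb1, Rps6kb2, Larp1, Eif4ebp1, Eif4ebp2, Myc and Mdm2). Of these, 1 was fitted above and 8 below 0 (median -0.38, median SE 0.74), and 0 passed. The genes were not sorted by whether they raise or lower synthesis, so this balance gives no direction of control. In 15C4 3, Mtor and Rps6kb2 were each at 0.939 CPM. The gene above 0 was Rps6kb1, which encodes an S6 kinase, at 365, 109 and 369.6 CPM in 15C4 and at 215, 198 and 98.0 CPM in IgG (0.81, SE 0.53, unadjusted p = 0.159).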

How the data were processed

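The members, gene lists and tests were chosen with earlier results of these data known. The authors deposited whole-number counts per gene symbol for each library. Per the submitters' processing notes, the tools were fastp, STAR 2.5b, featureCounts and DESeq2, with mm10 and mm9 as builds. What each build served for, and which annotation and strandedness were used, is not given in the sources used here. Libraries were made from PCR-amplified cDNA with Nextera XT, per the labels' protocols. From the authors' deposited table, the log2 fold change and the p-value and adjusted p-value of members were read and used only where named.

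Counts were tested here with edgeR 4.0.16 (R 4.3.3), with TMM factors, filterByExpr (minimum count 10, total 15) and Benjamini-Hochberg adjustment over all genes tested at 0.05, with treatment as the only term. SE is the log2 fold change over the square root of the F statistic. CPM are of all counts without TMM factors. Intervals are at 95%. The test was run on simulated counts with planted changes larger than any fitted for a member. That check does not show whether changes as small as the fitted ones would be called. DESeq2 1.42.0 and limma-voom (limma 3.58.1), other scalings and filters, each library left out and a replicate block were alternatives. Named genes were, per subunit, the 5 most abundant, the 4 with the smallest p in each direction, the 3 with the largest and smallest ranges of at least 20 CPM, those at 0 or without overlap, and relatives with their parents. Rps19, Rpl11, Rpl22, the near-uncounted members, those named for their make-up or level per kilobase, and Pabpc1, Gnl3 and Rps6kb1 were named after their values were seen. Coordinates and coding sequences are from GENCODE M21 (GRCm38), which held all 81 members. Total counts ranged from 5175600 to 19572202. Values of 2 single genes are not reported here.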

Additional observations from a re-analysis of the deposited data

How the results depend on the processing

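The count of ribosomal protein genes past the threshold was 0 under all 14 alternatives. Over all genes it was 0 with edgeR, 1 without a filter on low counts and 26 with DESeq2, and 0 with each library left out. At an unadjusted p under 0.05, edgeR had 288 genes, limma-voom 461 and DESeq2 455, and 0 members in each case. Members fitted above 0 numbered 24, but 8 with no scaling factors, 51 without 15C4 3 and IgG 3 together (chosen after seeing the data), and between 7 (without IgG 2) and 51 (without IgG 3) with 1 library left out. The cause was not tested. The subunit medians, -0.08 (large) and -0.06 (small), changed sign to 0.08 and 0.09 without IgG 3 and to 0.09 and 0.06 without 15C4 3 and IgG 3, and were -0.21 and -0.15 without IgG 2. The difference in share, -0.26 percentage points, ran from -0.48 (without IgG 2) to -0.045 (without IgG 3) with 1 library left out, and was -0.34 with the 100 most abundant other genes left out of the total. Of 208 log2 fold changes of 16 named genes under alternatives, 9 changed sign and 0 passed. With no scaling factors Rpl39 was at -0.0085. With 1 library left out, Rpl39 ran from -0.26 (without 15C4 3; -0.12 without IgG 2) to 0.29, Rps27l from -0.061 (without 15C4 3) to 0.52 and Rps13 from -0.057 (without 15C4 3) to 0.32. Rpl27 ran from -0.013 (without IgG 2) to 0.33, Rpl23a from -0.030 (without IgG 2) to 0.20, Rpl3 from -0.47 to 0.14 (without IgG 3) and Rps9 from -0.43 to 0.0085 (without IgG 3). The other 9 of the 16 genes kept their sign but also moved by over 1.5 times. Rpl15 ran from 0.14 (without IgG 1) to 0.92 (without IgG 3), Rps6 from 0.32 (without IgG 1) to 0.77 (without IgG 3) and Rps7 from 0.0027 (without IgG 2) to 0.36 (without IgG 3). Rpl8 ran from -0.60 (without 15C4 2) to -0.22 (without 15C4 3), Rpl35 from -0.65 (without IgG 2) to -0.23 (without IgG 3) and Rplp2 from -0.53 (without IgG 2) to -0.08 (without IgG 3). Rps15 ran from -0.67 (without 15C4 1) to -0.30 (without IgG 3), Rps18 from -0.51 (without 15C4 1) to -0.20 (without 15C4 3) and Rpsa from -0.46 (without 15C4 1) to -0.09 (without 15C4 3). The replicate numbers are not said to mark shared animals, and deviations of same-numbered libraries correlated at -0.036, 0.063 and 0.101, with 3 of 6 libraries correlating best with their own number. With the replicate block 0 genes and 0 members passed, 27 members were above 0, and the medians were -0.08 and -0.04.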
